A study of Mus musculus with 24 samples.

Results

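The genes described here are those whose transcript level shifted in the same direction in haematopoietic stem cells (HSC) and in myeloid progenitors (MP) of mice with reduced Dnmt1. They were found from 11 of the 13 Affymetrix expression arrays of the series, 6 from hypomorph and 5 from wildtype animals, by a linear model of log2 intensity with genotype and cell type as its terms. Of 12765 genes tested, 141 (1.1%) had a genotype effect at an adjusted p under 0.05 and the same sign in both cell types. Of these, 62 rose in hypomorph cells (0.486% of the genes tested) and 79 fell (0.619%). The other group in the series, wildtype B cell progenitors with 2 arrays, took no part in the comparison and is cited only as a reference level.

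The groups were HSC of Dnmt1-/chip mice (3 arrays), HSC of Dnmt1+/+ mice (2 arrays), MP of Dnmt1-/chip mice (3 arrays) and MP of Dnmt1+/+ mice (3 arrays), all of the 129ola strain and aged 8 to 12 weeks. Dnmt1-/chip animals carry a null allele and an allele of reduced activity in every tissue, so the bone marrow in which these cells matured was hypomorphic as well. RNA came from 35000 to 100000 sorted bone marrow cells per preparation. Neither the sort gates nor the animals behind each array are named in the labels. A p-value therefore speaks for the spread between arrays, and how many animals stand behind it is not known here.

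Dnmt1 is the maintenance DNA methyltransferase. After replication it restores the methyl group on the newly made strand at CpG sites, so that methylation patterns pass to daughter cells. Promoters of many germline genes are held methylated in somatic tissues, and imprinted genes carry methylation on the allele of 1 parent. In the marrow, HSC self-renew and give rise to MP, from which granulocytes, monocytes, mast cells, erythrocytes and megakaryocytes descend.

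Across the 11 arrays, each correlated with the others of its own group at 0.960 to 0.988. The labelled cell types matched their markers in the wildtype arrays. The mean log2 level of 52 stem cell genes was 9.11 to 9.23 in HSC and 7.43 to 7.79 in MP, and that of 33 granulocyte-monocyte progenitor genes was 7.58 to 7.65 in HSC and 10.7 to 10.9 in MP. The mean of 29 B lineage genes was 5.13 to 5.29 in both, against 10.3 in the B cell progenitors. The Y-linked gene Eif2s3y was at 2.35 to 2.87 on wildtype HSC array 2, hypomorph MP array 2 and wildtype MP array 3, and at 6.95 to 9.35 on the other 8, while Xist was at 8.13 to 12.8 on all 11. Arrays within wildtype HSC, hypomorph MP and wildtype MP thus differed in Eif2s3y, so that none of these groups consisted of repeats of a single RNA. None of 9 sex-linked genes tested was called, and the part of this difference in the results below was not tested.

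Within each cell type alone, 1396 genes were called in HSC (10.9%) and 73 in MP (0.572%). All 141 genes called in the joint model had the same sign in both, and no gene was called there with opposite signs. That model fits a single genotype effect to both cell types, in which opposite effects cancel. The agreement of sign therefore follows largely from the model and is no result about the genes. Over all genes tested, 5932 (46.5%) had the same sign. Of the 141, 102 were called in the HSC comparison and 48 in the MP comparison, and both counts include 34 that were called in each (20 rose and 14 fell). In 131 of them (56 risen, 75 fallen) every hypomorph array lay on the same side of every wildtype array within HSC and within MP, a pattern shown by 564 genes (4.42%) of those tested. The median shift was a log2 fold change of 1.41 among the 62 risen genes and -1.17 among the 79 fallen genes, while the median of all genes tested was -0.06. With the 6 risen genes that no wildtype array showed at the filter threshold set to their change over that threshold, the median rise was 1.36. At least a 2-fold change was seen for 99 of the 141 (49 risen, 50 fallen), and in each cell type separately for 56. Leaving out single arrays gave 29 to 55 risen and 25 to 81 fallen genes, and after median centring of the arrays 88 genes rose and 65 fell. Of 37 genes chosen by rule for description, 12 lost their call when at least 1 of the 11 arrays was left out: Ckm, Csf1r, Dcaf12l1, E330020D12Rik, Krt18, Myh10, Ndn, Nkg7, S100a8, Sgce, Vcam1 and Wfdc21. The largest rises and falls among the 37 were drawn only from genes whose arrays do not overlap in either cell type. For those genes the lack of overlap is thus no result.

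**Figure D1:**
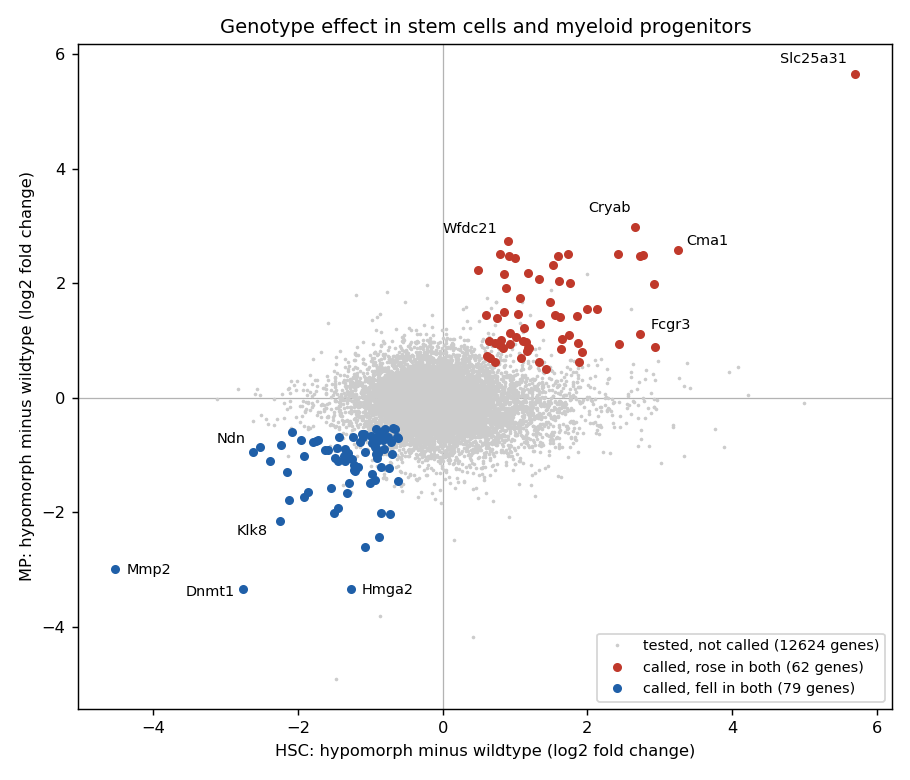
Each point is a gene, with the hypomorph minus wildtype log2 fold change in HSC on the x axis (3 against 2 arrays) and in MP on the y axis (3 against 3 arrays). Red points are the 62 called genes that rose in both and blue points the 79 that fell in both, while grey points are the other 12624 genes tested, whose spread is wider along the HSC axis. Slc25a31 stands at 5.70 and 5.65, apart from the other risen genes, while among the fallen genes Mmp2 lies farthest along the HSC axis and Dnmt1 and Hmga2 farthest along the MP axis.

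Dnmt1 itself checks the labels. It read 11.80 and 11.58 on the wildtype HSC arrays and 9.02, 8.48 and 9.31 on the hypomorph HSC arrays. In MP it read 11.41, 11.30 and 11.73 on the wildtype and 8.01, 8.24 and 8.17 on the hypomorph arrays. No hypomorph array came within 2 log2 units of a wildtype array of the same cell type. Dnmt1 fell by 8.45-fold in the joint model (log2 fold change -3.08 ± 0.18, SE; limma with Benjamini-Hochberg adjustment, adjusted p = 8.14e-06), and the effects in HSC (-2.75) and MP (-3.34) were not called different (adjusted p = 0.293). Of the other probe sets for this gene, 1 had an effect of -2.87 and the brightest over the 11 arrays -1.26, and both were called. None of the other 25 tested genes of the DNA methylation machinery was called in the joint model. Their median was -0.04 in the joint model, against -0.06 for all genes. Uhrf1, the partner that recruits Dnmt1 to new DNA, had an effect of 2.29 in HSC, where it was called, and 0.32 in MP, where it was not.

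Genes of the germline and of meiosis held the largest rise. Of 87 listed genes, 73 were on the array and 33 passed the filter on dim values. Of the 33, 6 rose in both cell types and none fell, beside 0.486% and 0.619% of all genes tested. The 6 were Slc25a31, Tex12, Syce1, Rec8, Stag3 and Tex14. The filter could be passed through the hypomorph arrays alone, as it was for Slc25a31, Tex12 and Syce1, and the 40 listed genes that did not pass it have no test in the main model. Without the filter all 73 were tested, and 6 were called as risen. The median of the 33 was 0.14, against -0.06 over all genes, and 22 of them had the same sign in both cell types (46.5% of all genes did). Leaving out single arrays gave 5 or 6 called rises on the list, a replicate block within each cell type 3, array weights 10, and a filter at the 75th percentile of all values, which only 5 listed genes passed, 2.

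The promoter sequences of Slc25a31, Tex12, Syce1 and Stag3 are shown because Dnmt1 acts on CpG sites, and that of Cma1, the risen gene with the next largest change, is given for contrast. Each is the 250 bases before the transcription start in RefSeq (build GRCm38.p6), read 5′ to 3′ on the gene's strand, with CpG sites in capitals. They lie at chr3:40708621-40708870 (plus strand) for Slc25a31, chr9:50561269-50561518 (minus) for Tex12, chr7:140787855-140788104 (minus) for Syce1, chr5:138280259-138280508 (plus) for Stag3 and chr14:55944676-55944925 (minus) for Cma1.
Slc25a31: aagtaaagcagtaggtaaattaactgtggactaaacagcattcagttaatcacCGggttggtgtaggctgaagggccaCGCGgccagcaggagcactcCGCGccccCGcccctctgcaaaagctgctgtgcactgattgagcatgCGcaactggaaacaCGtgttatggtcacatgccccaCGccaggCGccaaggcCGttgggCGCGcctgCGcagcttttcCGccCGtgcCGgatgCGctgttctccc
Tex12: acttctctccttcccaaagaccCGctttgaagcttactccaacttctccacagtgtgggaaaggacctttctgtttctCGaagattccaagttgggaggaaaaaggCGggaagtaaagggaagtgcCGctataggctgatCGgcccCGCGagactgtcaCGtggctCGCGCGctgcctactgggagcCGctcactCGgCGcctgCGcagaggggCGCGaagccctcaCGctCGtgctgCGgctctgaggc
Syce1: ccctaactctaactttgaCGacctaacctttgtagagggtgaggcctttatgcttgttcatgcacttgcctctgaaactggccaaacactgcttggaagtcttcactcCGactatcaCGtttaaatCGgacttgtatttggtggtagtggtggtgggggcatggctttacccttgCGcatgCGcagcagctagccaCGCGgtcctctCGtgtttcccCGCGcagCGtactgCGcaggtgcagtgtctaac
Stag3: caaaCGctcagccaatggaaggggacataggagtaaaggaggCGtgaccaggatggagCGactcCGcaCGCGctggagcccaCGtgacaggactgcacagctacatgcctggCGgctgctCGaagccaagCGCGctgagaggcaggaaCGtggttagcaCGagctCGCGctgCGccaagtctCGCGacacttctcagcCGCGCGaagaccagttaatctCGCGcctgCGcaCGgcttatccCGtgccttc
Cma1: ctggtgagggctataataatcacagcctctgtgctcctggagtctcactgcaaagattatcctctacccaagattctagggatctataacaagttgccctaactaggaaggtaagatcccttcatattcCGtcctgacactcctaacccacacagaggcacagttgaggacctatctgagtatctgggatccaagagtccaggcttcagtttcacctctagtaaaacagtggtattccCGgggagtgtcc

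These windows hold 18 CpG sites in Slc25a31, 20 in Tex12, 13 in Syce1 and 26 in Stag3, and 2 in Cma1. Those of Rec8, which rose by more than Stag3, and of Tex14 are not printed and hold 10 and 17. The printed windows are examples and test no contrast in CpG sites. The 6 risen germline genes had a median of 17.5 CpG sites (10 to 26), the 22 of 27 other tested germline genes with a promoter in the table had 14, and the 10317 tested genes with one had 16. The motif CACGTG, searched on both strands, was in the windows of 3 of the 6 risen germline genes (Slc25a31 and Tex12, both 93 bases before the start, and Stag3, 170 bases before it), in 7 of the other 22 and in 8.56% of all windows. GGCGGGAA was in 2 of the 6, in 3 of the other 22 and in 3.63% of all windows. TATAAA was in none of the 6, in 1 of the other 22 and in 6.21% of all. For the risen and fallen genes as wholes such a comparison is void, because only 46 of 62 (74.2%) and 55 of 79 (69.6%) had a promoter in the table. DNA methylation was not measured on these arrays.

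Slc25a31 encodes the ADP/ATP carrier of male germ cells. It read 3.07 and 2.47 in wildtype and 8.78, 9.26 and 7.38 in hypomorph HSC, and 3.47, 3.91 and 1.93 in wildtype against 9.08, 8.93 and 8.25 in hypomorph MP. The wildtype arrays, with those of the B cell progenitors (3.01 and 2.65), were among the dimmest on the scale and all hypomorph arrays far above them. The joint log2 fold change was 5.67 ± 0.39 (SE; adjusted p = 2.11e-05), with 5.70 in HSC and 5.65 in MP. No wildtype array reached the filter threshold of 4.64, so the size of the fitted change rests on values near the bottom of the scale. The mean of the 6 hypomorph arrays lay 15.7-fold over that threshold, which gives a rise of at least 15.7-fold over the wildtype level.

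Tex12 and Syce1 encode proteins of the central element of the synaptonemal complex, which joins homologous chromosomes in meiosis. Tex12 went from 3.06 and 3.34 to 5.995, 6.14 and 5.77 in HSC and from 3.64, 3.39 and 3.63 to 6.77, 5.91 and 5.43 in MP (log2 fold change 2.61 ± 0.21, SE; adjusted p = 5.79e-05). Syce1 went from 3.15 and 4.17 to 7.08, 6.02 and 5.16 in HSC and from 3.86, 3.94 and 3.81 to 6.74, 6.01 and 6.40 in MP (2.47 ± 0.30; adjusted p = 0.00184). In neither gene did the groups overlap, as the rule that chose them required, and the wildtype values lay under the filter threshold of 4.64 throughout. The hypomorph means lay 2.57-fold (Tex12) and 3.02-fold (Syce1) over that threshold, which are lower bounds of the rises.

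Rec8 and Stag3 are subunits of the cohesin ring of meiotic chromosomes. Rec8 was already bright in wildtype HSC (7.73 and 8.23) and read 8.72, 8.72 and 9.16 in hypomorph HSC. In MP it went from 5.52, 5.90 and 5.80 to 7.92, 7.50 and 7.53, so the MP effect was 1.91 and the HSC effect 0.88, which were not called different (adjusted p = 0.0801). Stag3 went from 4.38 and 4.86 to 6.04, 5.51 and 5.44 in HSC and from 5.16, 5.44 and 4.93 to 6.38, 6.73 and 6.78 in MP (joint effect 1.27 ± 0.18; adjusted p = 0.00511). Tex14, a component of the bridges between germ cells, had a joint effect of 1.20 ± 0.24 (adjusted p = 0.0337). Outside the list, and named after their values were seen, the meiotic genes Rec114 (1.59) and Psmc3ip (0.91) rose and Meiob (-1.19) fell. Ddx4, a germ cell RNA helicase, had effects of 2.70 in HSC and -0.35 in MP that differed between the cell types, and was not called in the joint model.

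**Figure D2:**
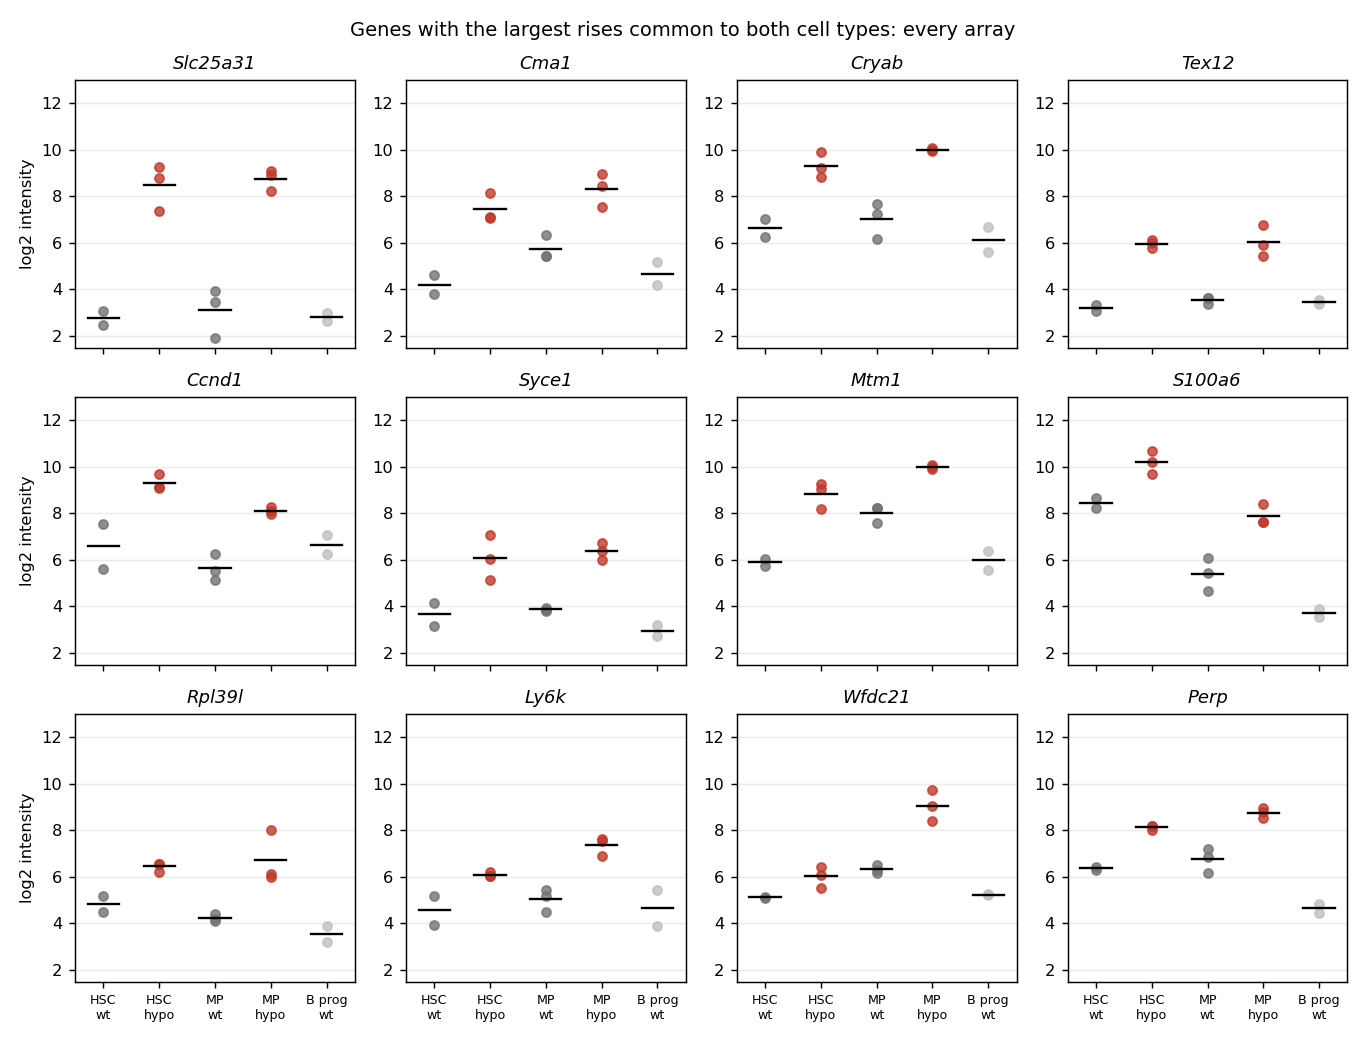
Each panel shows a gene among the 12 largest rises, with the log2 intensity of every array on the y axis and the groups on the x axis: wildtype (grey) and hypomorph (red) HSC and MP, and wildtype B cell progenitors (light grey). Points are arrays and bars group means. In all 12 the hypomorph points lie above the wildtype points of the same cell type, which the rule that chose them required. By group means the rises run from 5.70 log2 units for Slc25a31 in HSC to 0.90 for Wfdc21 in HSC.

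Cma1, the chymase of mast cells, had the second largest rise. It read 3.79 and 4.61 in wildtype and 8.12, 7.08 and 7.13 in hypomorph HSC, and 5.44, 6.36 and 5.45 in wildtype against 7.53, 8.46 and 8.97 in hypomorph MP. Cma1 rose 7.31-fold (log2 fold change 2.87 ± 0.32, SE; adjusted p = 0.00081). It was the sole mast cell, basophil and eosinophil gene called in the joint model, of 16 tested. In the HSC comparison 7 of the 16 were called, all rises (5.36% of all genes rose there), among them Cpa3 (3.34), Fcer1a (3.18) and Ms4a2 (2.72). In MP these 3 had effects of 0.20, -0.48 and 0.27, and their effects were called different between the cell types. The mean level of the list was 5.70 to 5.87 in wildtype and 6.69 to 7.32 in hypomorph HSC, and 7.88 to 8.31 in wildtype and 8.44 to 8.46 in hypomorph MP. In these bulk samples a larger number of cells of a type and more RNA per cell cannot be told apart.

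Mature neutrophil and monocyte genes had a positive median in both cell types, although few members passed the test. The median of the 16 tested was 0.61 in the joint model and 0.57 in HSC and in MP, against -0.06, -0.11 and -0.02 for all genes. Wfdc21, a secreted protein of granulocytes, and S100a8, a subunit of calprotectin, were called. Wfdc21 went from 5.09 and 5.14 to 6.09, 5.54 and 6.43 in HSC and from 6.16, 6.52 and 6.28 to 9.02, 9.74 and 8.42 in MP, an effect larger in MP (2.74 ± 0.31) than in HSC (0.90 ± 0.35; adjusted p of the difference = 0.0409). S100a8 went from 9.66 and 7.93 to 10.75, 9.45 and 10.17 in HSC, where the groups overlap, and from 8.06, 8.92 and 7.99 to 9.71, 11.03 and 10.46 in MP (joint effect 1.75 ± 0.37; adjusted p = 0.044). Camp, Lcn2 and S100a9 had joint effects of 1.42, 1.26 and 1.24 and were not called. The mean level of the list was 6.35 to 6.95 in wildtype and 6.98 to 7.74 in hypomorph HSC, and 6.79 to 7.13 in wildtype and 7.39 to 8.07 in hypomorph MP. Whether RNA of mature neutrophils took part in these rises was not tested.

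Among 33 granulocyte-monocyte progenitor genes, Fcgr3 and Nkg7 rose and Csf1r fell. Fcgr3, a low-affinity receptor for immunoglobulin G used to sort these progenitors, went from 3.31 and 3.24 to 6.32, 5.83 and 5.85 in HSC and from 8.75, 9.08 and 8.92 to 10.12, 10.04 and 9.92 in MP. Its effect was larger in HSC (2.72 ± 0.20) than in MP (1.11 ± 0.18; adjusted p of the difference = 0.00896), and it started from a much lower level in HSC. Nkg7, a granule membrane protein also on the list of T and NK cell genes, went from 8.75 and 8.23 to 10.55, 10.55 and 10.03 in HSC and from 11.08, 11.69 and 10.98 to 11.94, 11.88 and 11.78 in MP (joint effect 1.18 ± 0.25; adjusted p = 0.044). Csf1r, the receptor of macrophage colony-stimulating factor, went from 7.06 and 6.85 to 6.04, 6.42 and 6.27 in HSC and from 12.05, 12.10 and 12.21 to 11.39, 11.22 and 11.41 in MP. Its joint effect was -0.75 ± 0.13 (adjusted p = 0.015), the smallest among the genes named here by rule. In the HSC comparison 10 of the 33 rose and 2 fell, Csf1r (-0.71) and Mgst1 (-0.72). Of all genes tested, 5.36% rose and 5.58% fell there. The largest HSC rises were those of Ccr1 (4.99), Ctsg (3.42) and Ms4a3 (3.27), and in MP those 3 had effects of -0.08, 0.18 and 0.34. The median of the list was 0.31 in the joint model, 0.35 in HSC and 0.05 in MP. Nkg7 was the sole T and NK cell gene of 14 to be called.

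Other large rises belonged to genes of varied function. Ccnd1, cyclin D1, which drives passage through G1, went from 7.56 and 5.60 to 9.09, 9.14 and 9.68 in HSC and from 6.27, 5.15 and 5.53 to 8.11, 8.26 and 7.98 in MP. Ccnd1 rose 5.99-fold in the joint model (log2 fold change 2.58 ± 0.31, SE; adjusted p = 0.00184), and its other probe sets rose by 1.67 and 1.73. Cryab, a small heat-shock chaperone best known in lens and muscle, went from 7.04 and 6.26 to 8.82, 9.20 and 9.90 in HSC and from 6.17, 7.65 and 7.22 to 9.98, 9.95 and 10.06 in MP (2.84 ± 0.28; adjusted p = 0.000288). Perp, a p53 target of cell junctions, went from 6.31 and 6.43 to 8.17, 8.20 and 8.03 in HSC and from 7.20, 6.19 and 6.85 to 8.51, 8.95 and 8.78 in MP (1.89 ± 0.18; adjusted p = 0.000266). Perp was alone among 27 tested p53 targets and cell cycle inhibitors, whose median was 0.03. Cdkn1b, Cdkn2c and Cdkn1a, inhibitors of cyclin-dependent kinases, had effects of 1.63, 1.53 and 1.04 in HSC, where they were called, and 0.44, 0.22 and 0.26 in MP, where they were not. Mdm2, a p53 target, had effects of -0.19 and -0.75 and was not called.

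Mtm1, an X-linked phosphoinositide phosphatase, went from 6.03 and 5.76 to 8.17, 9.26 and 9.03 in HSC and from 8.21, 7.59 and 8.21 to 9.88, 10.07 and 10.001 in MP (2.40 ± 0.24; adjusted p = 0.000383). The dimmer probe sets of this gene did not follow alike, with joint effects of 1.41 and -0.27 and neither called. S100a6, a calcium-binding protein, went from 8.67 and 8.24 to 9.70, 10.20 and 10.68 in HSC and from 4.67, 6.06 and 5.42 to 7.62, 8.41 and 7.62 in MP (2.16 ± 0.29; adjusted p = 0.00327). Ly6k, a membrane-anchored protein of the Ly6 family known from testis, went from 3.95 and 5.18 to 6.21, 6.03 and 6.02 in HSC and from 4.51, 5.42 and 5.17 to 7.62, 7.54 and 6.90 in MP (1.97 ± 0.26; adjusted p = 0.00376). Hypomorph arrays were the brighter ones within each cell type for these 3 genes, as the rule that chose them required. Rpl39l, a ribosomal protein paralogue also known from testis, went from 5.20 and 4.49 to 6.21, 6.57 and 6.55 in HSC and from 4.09, 4.18 and 4.42 to 5.98, 8.001 and 6.13 in MP (2.09 ± 0.34; adjusted p = 0.0111), with 1 hypomorph MP array well above the others. E330020D12Rik, of unknown function, had a joint effect of 1.85 ± 0.40 close to the threshold (adjusted p = 0.0482) and was brighter in the B cell progenitors (9.72 and 9.76) than on any other array. It read 3.58 and 3.79 in wildtype and 4.56, 4.31 and 7.01 in hypomorph HSC. In MP it went from 5.77, 5.03 and 5.68 to 7.33, 7.58 and 7.72, and it was called in neither cell type alone.

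Muscle and cytoskeletal genes of other tissues moved both ways. Of 26 tested, 2 rose and 2 fell (0.486% and 0.619% of all genes did), and the median was -0.06, as for all genes. Tnnt1, slow skeletal troponin T, went from 4.88 and 4.67 to 6.73, 6.82 and 6.76 in HSC and from 5.37, 6.11 and 6.16 to 7.82, 7.57 and 6.87 in MP (1.74 ± 0.21; adjusted p = 0.00167). Ckm, muscle creatine kinase, went from 5.47 and 4.86 to 5.83, 5.88 and 6.18 in HSC and from 4.83, 5.43 and 5.13 to 8.22, 7.43 and 7.30 in MP, with a larger effect in MP (2.52 ± 0.27) than in HSC (0.80 ± 0.30; adjusted p of the difference = 0.0322). Krt18, a keratin, and Myh10, a nonmuscle myosin, had joint effects of -1.20 ± 0.24 and -1.02 ± 0.19 (adjusted p = 0.0338 and 0.0264). Krt8, the partner of Krt18, had effects of -2.59 in HSC and 0.06 in MP, which differed between the cell types.

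Vcam1, the adhesion molecule of macrophages and stroma, was called as risen (joint effect 1.58 ± 0.29; adjusted p = 0.0264). In MP it went from 6.86, 6.69 and 6.52 to 8.96, 8.96 and 8.64. In HSC the wildtype values of 4.52 and 3.45 overlapped the hypomorph values of 4.96, 5.34 and 4.20, and its other probe sets had effects of 0.21 and 0.15. Of the other macrophage, stromal and endothelial genes, 14 tested in all, only Mmp2 was called. The mean level of that list was 5.89 to 5.95 in wildtype and 5.16 to 5.56 in hypomorph HSC, and 5.40 to 5.46 in wildtype and 5.34 to 5.41 in hypomorph MP.

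The largest fall was that of Mmp2, the gelatinase of the matrix metalloproteinase family. It read 9.52 and 10.28 in wildtype and 5.54, 5.57 and 5.02 in hypomorph HSC, and 7.54, 7.38 and 7.76 in wildtype against 4.65, 4.30 and 4.77 in hypomorph MP. The hypomorph values of both cell types were near those of the B cell progenitors (5.32 and 4.60). Mmp2 fell 12.7-fold in the joint model (log2 fold change -3.67 ± 0.28, SE; adjusted p = 5.11e-05), by more in HSC (-4.52 ± 0.27) than in MP (-2.99 ± 0.24; adjusted p of the difference = 0.0322). Its other tested probe set fell by 3.23 on the same scale.

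Further genes of secreted and lysosomal proteins fell with it. Klk8, a kallikrein-related peptidase, went from 11.24 and 11 to 9.35, 8.96 and 8.32 in HSC and from 9.27, 10.01 and 9.50 to 7.73, 8.10 and 6.51 in MP (-2.19 ± 0.28; adjusted p = 0.00255). Ctsf, cathepsin F, went from 8.17 and 9.22 to 7.09, 6.995 and 5.62 in HSC and from 6.71, 6.63 and 6.54 to 4.29, 5.22 and 4.99 in MP (-1.94 ± 0.29; adjusted p = 0.00659). Serpinf1, the secreted pigment epithelium-derived factor, went from 10.12 and 10.31 to 8.39, 8.34 and 8.34 in HSC and from 9.37, 9.96 and 9.42 to 8.004, 7.90 and 7.93 in MP. The arrays of a group lay close together for Serpinf1, and its joint effect was -1.74 ± 0.14 (adjusted p = 5.79e-05). These 4 genes were grouped after their values were seen.

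Met, Epb41l4b, Sdc1 and Dcaf12l1 were also among the 12 largest falls. Met, the receptor of hepatocyte growth factor, went from 5.36 and 4.78 to 4.04, 3.34 and 3.48 in HSC and from 6.16, 6.24 and 6.99 to 4.72, 4.35 and 4.51 in MP (-1.72 ± 0.21; adjusted p = 0.00184). Epb41l4b, a band 4.1 protein that links membrane and cytoskeleton, went from 10.89 and 11.25 to 10.08, 9.93 and 8.71 in HSC and from 9.14, 8.41 and 9.23 to 6.81, 6.60 and 7.31 in MP (-1.79 ± 0.27; adjusted p = 0.0067). Both were lower on every hypomorph array than on any wildtype array of the same cell type, as the rule that chose them required. Sdc1, the proteoglycan syndecan-1, went from 6.58 and 5.44 to 4.92, 4.96 and 4.93 in HSC and from 5.55, 6.17 and 5.87 to 3.47, 2.73 and 3.55 in MP (-1.93 ± 0.31; adjusted p = 0.0108), but its other probe sets had effects of -1.02, -0.31 and 0.02, none of them called. It was the sole plasma cell gene called, of 9. The X-linked Dcaf12l1, a WD-repeat protein, went from 8.06 and 8.03 to 7.44, 7.46 and 6.62 in HSC and from 6.97, 6.48 and 6.96 to 3.97, 4.96 and 4.19 in MP (-1.74 ± 0.31; adjusted p = 0.0205).

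**Figure D3:**
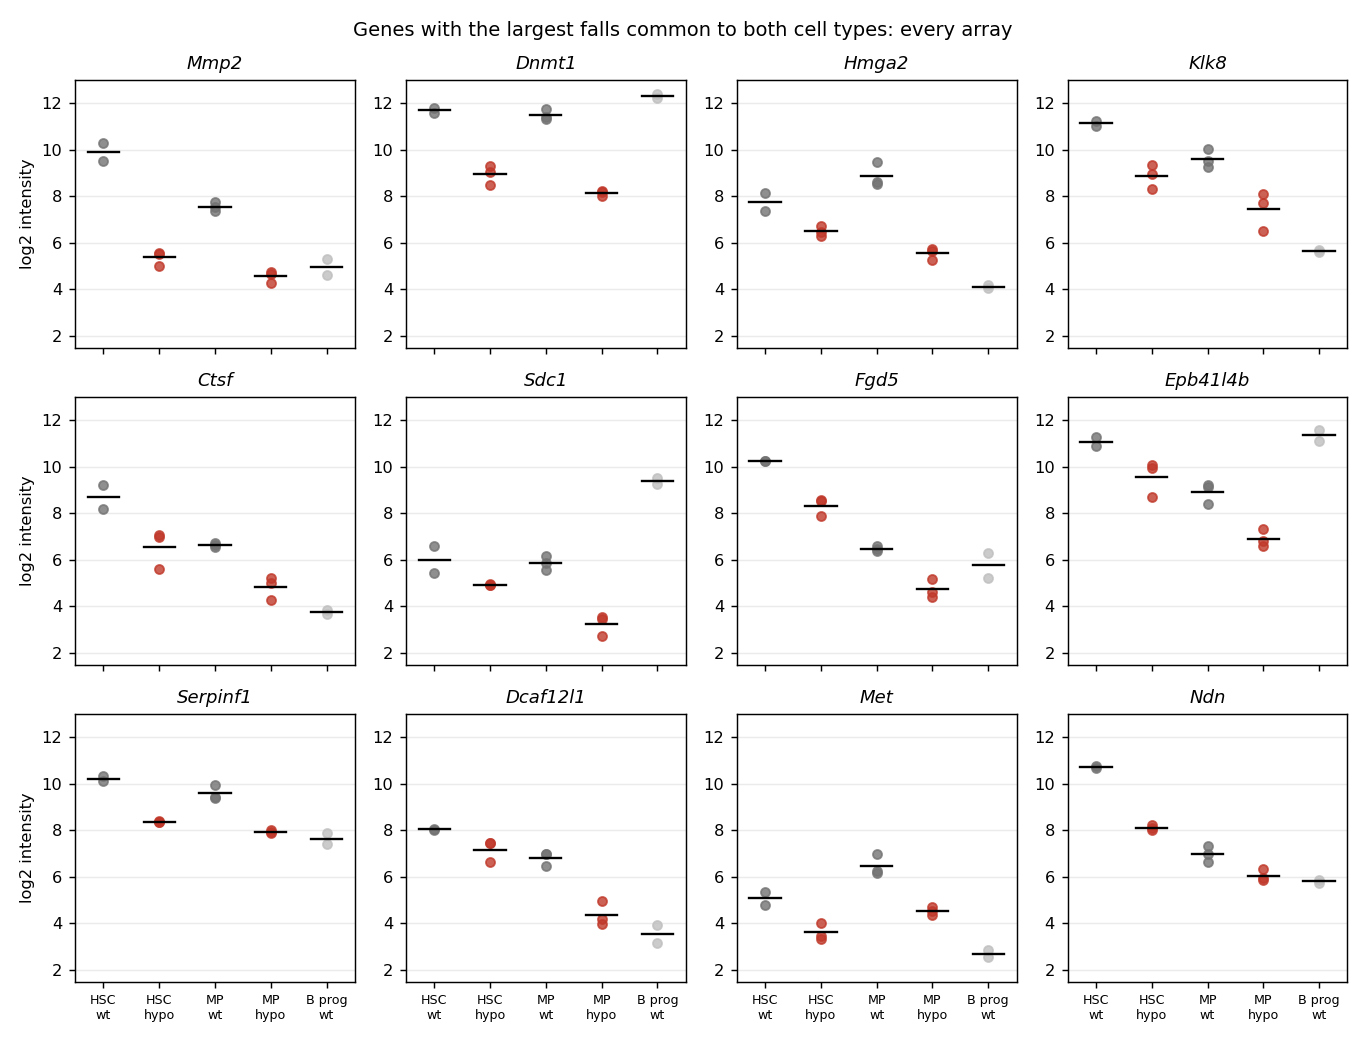
Each panel shows a gene among the 12 largest falls, with log2 intensity of every array on the y axis and the groups on the x axis, coloured as in the plot of the rises. Points are arrays and bars group means. In all 12 the hypomorph points lie below the wildtype points of the same cell type, which the rule that chose them required. Several genes, such as Klk8, Ctsf, Fgd5 and Ndn, are brighter in wildtype HSC than in wildtype MP.

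Of 52 stem cell genes tested, 5 fell (Hmga2, Fgd5, Ndn, Ltb and Flt3) and 1 rose (Thy1), beside 0.619% and 0.486% of all genes. Leaving out single arrays left 2 to 4 of these falls, with 2 without wildtype HSC array 2 and 3 without hypomorph HSC array 2, hypomorph MP arrays 2 or 3 or wildtype MP array 1. A replicate block within each cell type left 1 fall and no rise, while weighting the cell types equally gave 8 falls and array weights 19. Their median was -0.40, against -0.06 over all genes. It was -0.46 in HSC and -0.31 in MP. Fgd5, a gene that marks HSC, went from 10.24 and 10.22 to 7.86, 8.56 and 8.53 in HSC and from 6.45, 6.61 and 6.36 to 5.16, 4.41 and 4.64 in MP (-1.82 ± 0.18; adjusted p = 0.000288). Hmga2, a chromatin protein most active in fetal stem cells, went from 7.38 and 8.12 to 6.28, 6.45 and 6.74 in HSC and from 9.47, 8.62 and 8.55 to 5.73, 5.25 and 5.66 in MP. Its fall was larger in MP (-3.33 ± 0.28) than in HSC (-1.26 ± 0.31; adjusted p of the difference = 0.0195). Flt3, a cytokine receptor of early progenitors, had a joint effect of -1.09 ± 0.23 (adjusted p = 0.044), with the groups overlapping in HSC (8.85 and 10.13 against 8.88, 8.96 and 8.76). Ltb, lymphotoxin beta, had one of -1.45 ± 0.27 (adjusted p = 0.024). Thy1 went the other way, from 7.62 and 7.22 to 8.54, 8.20 and 8.91 in HSC and from 4.65, 5.29 and 4.70 to 6.03, 6.05 and 6.24 in MP (1.18 ± 0.17; adjusted p = 0.00609). Transcription factors of stem cells such as Hlf (-1.16), Meis1 (-0.70), Mecom (0.18) and Hoxa9 (0.19) were not called in the joint model. The mean level of the list was 9.11 to 9.23 in wildtype and 8.49 to 8.80 in hypomorph HSC, and 7.43 to 7.79 in wildtype and 7.24 to 7.42 in hypomorph MP.

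Imprinted genes gave 3 falls and no rise among 34 tested, with a median of -0.15. Of all genes tested, 0.619% fell. Ndn, a paternally expressed growth suppressor also on the stem cell list, went from 10.77 and 10.69 to 8.002, 8.09 and 8.22 in HSC and from 6.98, 6.64 and 7.34 to 5.94, 5.85 and 6.35 in MP (-1.69 ± 0.28; adjusted p = 0.0143). The 4 other probe sets of Ndn that passed the filter fell as well, with joint effects of -1.86 to -3.38, and all 4 were called. Grb10, an adaptor that restrains growth factor signalling, went from 9.70 and 10.29 to 9.11, 8.83 and 8.36 in HSC and from 9.87, 9.32 and 9.67 to 8.18, 8.16 and 8.75 in MP (-1.24 ± 0.19; adjusted p = 0.00808). Sgce, a paternally expressed sarcoglycan, went from 8.68 and 9.34 to 8.59, 7.98 and 6.51 in HSC and from 6.88, 6.72 and 7.16 to 5.16, 5.04 and 5.56 in MP (-1.51 ± 0.31; adjusted p = 0.0407). In all 3 the hypomorph arrays lay below the wildtype arrays of the same cell type, which the rule for the largest falls required of Ndn. Meg3 (-2.56), Peg3 (-2.11), Igf2 (-1.20) and Igf2r (-1.12) were called in HSC and had effects of 0.16, -0.06, 0.04 and 0.22 in MP, and these differences between the cell types were called. Plagl1 was called in HSC (-2.08) and had an effect of -0.58 in MP.

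**Figure D4:**
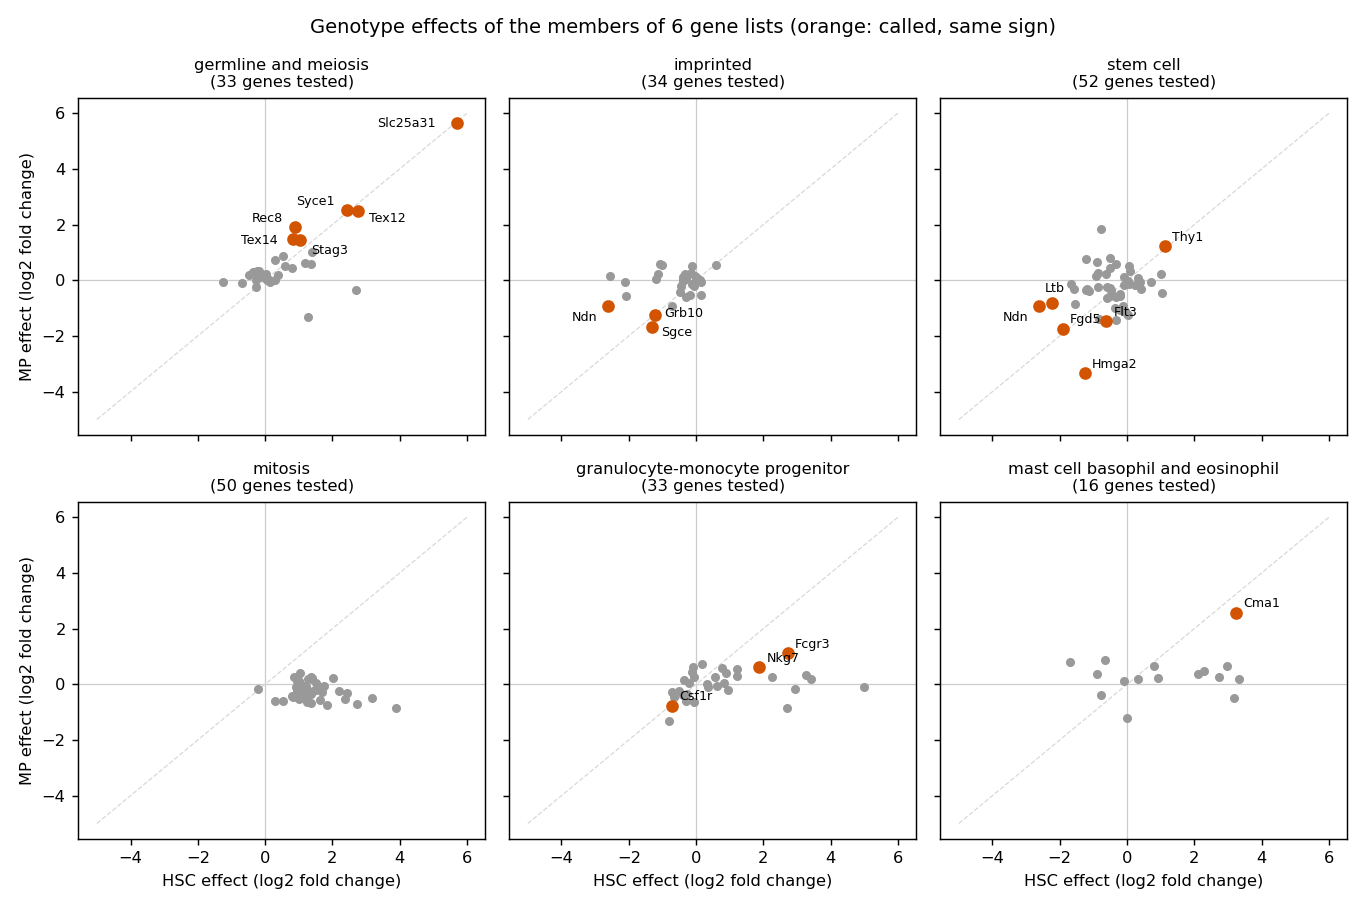
Each panel shows the tested members of a gene list, with the hypomorph minus wildtype log2 fold change in HSC on the x axis and in MP on the y axis; the dashed line marks equal effects. Orange points, which are named, are called in the joint model with the same sign. The 6 named germline genes have positive effects in both cell types, as called rises must. Of these, Rec8, Tex14 and Stag3 lie farthest above the line. The 50 mitosis genes spread along the HSC axis, with a median of 1.25 in HSC and -0.26 in MP.

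Cell division genes rose in HSC and were not called in the joint model. Of 50 tested mitosis genes, 42 rose in HSC (5.36% of all genes did), and none was called in MP or in the joint model. The effects of 33 were called different between the cell types (5.52% of all genes were). Of 48 genes of DNA replication and S phase, 23 rose in HSC and none was called in MP or in the joint model. Their medians were 0.86 in HSC and -0.10 in MP. Under the model that weights the cell types equally, 8 mitosis genes and 7 of DNA replication were called as common rises, and median centring, a trended prior and array weights each gave 1 mitosis gene. The mean level of the mitosis list was 7.68 to 7.86 in wildtype HSC and 9.05 to 9.22 in hypomorph HSC, beside 9.15 to 9.35 in wildtype and 8.90 to 9.14 in hypomorph MP. The hypomorph HSC arrays were thus at the level of the MP arrays of either genotype.

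No gene was called in the joint model on the lists of interferon response (43 tested, median -0.29), erythroid cells (34, 0.07), megakaryocytes and platelets (22, -0.21), B lineage (29, -0.05), immediate early and heat shock genes (32, -0.10), major histocompatibility genes (18, -0.24) or Polycomb and other chromatin repressors (31, -0.04). In the HSC comparison 7 of the 43 interferon response genes fell (16.3%), beside 5.58% of all genes tested. Over the 22 lists, 28 of the 141 common genes belonged to at least 1, and 113 to none.

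Of the 141 common genes, 80 had the larger effect in HSC and 61 in MP. The difference itself was called for 12, of which 7 had the larger effect in HSC and 5 in MP. The HSC and MP comparisons share no arrays, but they share the estimate of spread of each gene and the joint normalization. Their calls are therefore not independent, and whether HSC and MP arrays came from the same animals is not known here. Of the genes called in HSC, 2.72% were also called in MP, where 0.572% of all genes were. Of those called in MP, 52.1% were also called in HSC, where 10.9% of all genes were. The 38 genes called in both comprised 34 of the same sign and 4 of opposite sign, Tpm4, Gda, Tmem53 and BC018473, which were named after their values were seen. Of the 1396 genes called in HSC, 632 (45.3%) had the same sign in MP, which is near the share of 46.5% over all genes tested. Of the 73 called in MP, 56 (76.7%) had the same sign in HSC. Genes with a fitted change of at least 4-fold in both cell types were Slc25a31, Cma1, Cryab, Tex12, Ccnd1, Syce1, Klk8, Dnmt1 and Mmp2.

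In wildtype cells the genes that fell were mostly brighter in HSC than in MP, as 71 of 79 were (89.9%), compared with 57.9% of all genes tested. Of the risen genes, 20 of 62 (32.3%) were. These counts use the wildtype arrays of the comparison itself and are given as a description. The median level of the fallen genes was 8.43 in wildtype HSC, 6.99 in wildtype MP and 5.70 in B cell progenitors, beside 7.66, 7.61 and 7.19 for all genes. In hypomorph cells it was 7.20 in HSC and 6.004 in MP. The risen genes were dim, with medians of 5.37 in wildtype HSC, 5.84 in wildtype MP and 5.31 in B cell progenitors, and 6.78 and 7.69 in hypomorph HSC and MP. For 9 of the 62 fewer than 2 wildtype arrays reached the filter threshold, and for 6 of these none did. Among the 79 fallen genes, 5 had fewer than 2 hypomorph arrays at that threshold.

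By position, 140 of the 141 genes had a chromosome in the RefSeq gene table. Chromosome 9, which carries Dnmt1, held 14 of them (10%), and 5.68% of the genes tested. Chromosome 7 also held 14 (10%), and 7.82% of those tested. Chromosome 13 held 10 (7.14%), and 3.60% of those tested. As a share of the tested genes of a chromosome, the common genes were most frequent on chromosome 13 (2.18%), beside 1.93% on chromosome 9 and 1.40% on chromosome 7. Chromosomes 18 (1.69%), X (1.55%), 6 (1.52%) and 3 (1.48%) lay between chromosomes 9 and 7. On chromosome 9, Ncam1, Tex12 and Cryab lay within 11 tested genes of each other, with joint effects of -1.68, 2.61 and 2.84. None of the 20 tested genes on either side of Dnmt1 was common to both cell types, and 5 of these 40 (12.5%) were called in HSC, where 10.9% of all genes were, and none in MP. The common genes nearest to Dnmt1 lay just outside this window, Kank2 (-0.78) 25 tested genes to one side and Sesn3 (-0.85) 26 to the other. The X chromosome held 6 common genes: Mtm1 rose, and Kctd12b, Maged1, Bex4, Klhl13 and Dcaf12l1 fell.

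Of the 141 genes, 56 had further tested probe sets, 92 in all. Of these, 76 moved in the same direction and 16 in the opposite one. The 13 that were called on their own all moved in the same direction as the probe set chosen for the gene.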

How the data were processed

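Transcripts were measured on 13 Affymetrix arrays of 45101 probe sets. The authors deposited RMA values, per the submitters' processing notes, which name no version. The deposited values run from 1.93 to 15.0 and are read as log2 intensities, which is inferred from that range, so each fold change rests on it. RMA joins background correction, quantile normalization and a summary over the probes of a set. Of the 24 deposited columns, 13 are a normalization of all arrays, used here, and 11 a further one of the same HSC and MP arrays, used as an alternative; same-label columns correlated at 0.999. All arrays were scaled jointly, so a shift of all transcripts would not show. Precision is limited by the number of arrays, 2 or 3 a group.

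Probe sets naming 1 gene (34958) were kept where at least 2 of 13 arrays reached 4.64, the median of all values, and the brightest stood for its gene, leaving 12765 of 18194 genes. Genotype was fitted with cell type in limma 3.58.1 (R 4.3.3), with 8 residual degrees of freedom, and each cell type and the difference of effects in a model of the 4 groups. P-values were adjusted by Benjamini-Hochberg over all genes tested, and genes under 0.05 are called; errors are limma's SE. A joint effect is the genotype coefficient, a log2 fold change of hypomorph over wildtype. It weights MP more, having more arrays, and disfavours genes whose effects differ between cell types.

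Genes described are Dnmt1, the 14 largest rises and 12 largest falls among common genes whose arrays do not overlap in either cell type, and up to 2 common rises and 2 common falls from each list (all common members where a list had 5 or fewer). Others are said to be so, or are further members of a list or table being counted. The members, the 22 gene lists and the tests were chosen with earlier results of these data known. A first version took the filter and the probe sets from the 11 arrays alone; after its results were seen, all 13 arrays were used instead, and the first version is given as an alternative. Calling was tested on simulated data that held the same shifts in both cell types. That test does not show how often a change in a single cell type is called common. Replicate numbers are treated as names, not pairs. Promoters are RefSeq's (GRCm38.p6); where a gene had several starts, that with the most CpG sites was taken, and the 4 germline genes and Cma1 printed had a single start. Some alternatives change normalization, filter, probe sets, prior, weights, blocks or arrays.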

Additional observations from a re-analysis of the deposited data

Results flagged for a closer look

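For 12 common genes the effects in HSC and MP had the same sign but were called different in size by the interaction contrast of the 4-group limma model. The HSC effect minus the MP effect was 1.61 for Fcgr3 (adjusted p = 0.00896), which rose by more in HSC, and 2.04 for Sgk1 (adjusted p = 0.04), a kinase that read 4.52 and 6.23 in wildtype and 8.09, 8.30 and 8.53 in hypomorph HSC. Rises larger in MP were those of Wfdc21 (-1.84), Tubb2b, a beta tubulin (-1.75; adjusted p = 0.0234), Ckm (-1.72) and Clec11a, a growth factor of bone and blood progenitors (-1.43; adjusted p = 0.0377). In HSC alone the effects of Wfdc21 (0.90), Tubb2b (0.48) and Ckm (0.80) were not called. Tubb2b read 2.95 and 3.27 in wildtype and 3.36, 3.47 and 3.95 in hypomorph HSC, all under the filter threshold. A rise of Tubb2b in HSC thus rests on values near the bottom of the scale. Clec11a read 6.60 and 6.85 in wildtype and 8.04, 7.54 and 7.61 in hypomorph HSC, and 6.38, 6.95 and 6.83 against 9.17, 9.51 and 8.78 in MP. The fall of Hmga2 was the larger in MP, with a difference of 2.07. Falls larger in HSC were those of Ndn (-1.68), Rhbdf1 (-1.66; adjusted p = 0.0486), Mmp2 (-1.53), Itsn1, an endocytic scaffold protein (-1.48; adjusted p = 0.0279), and Ltb (-1.40). The Ndn difference depends on its probe set: 4 others had HSC effects of -1.32, -1.64, -1.74 and -2.89 and MP effects of -3.78, -3.86, -1.95 and -3.77, so each of them fell by more in MP. Of all genes tested, 5.52% had effects called different.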

How the results depend on the processing

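Across 24 alternatives to the main model, 17 of the 37 genes described kept their call under each that included them, 20 lost it at least once, and 0 changed direction. The lost calls were most frequent for Nkg7, S100a8, Sgce, E330020D12Rik, Krt18 and Vcam1. Beside 62 risen and 79 fallen common genes, 1396 calls in HSC and 73 in MP, single arrays left out gave 29 to 55, 25 to 81, 478 to 1898 and 31 to 180. The risen count moved by over 1.5 times without wildtype HSC array 2 (41), hypomorph MP arrays 1, 2 or 3 (36, 32 and 41) and wildtype MP arrays 1 or 3 (29 and 31). The fallen count did so without hypomorph HSC arrays 2 or 3 (36 and 45), wildtype HSC arrays 1 or 2 (46 and 32), hypomorph MP arrays 1, 2 or 3 (43, 36 and 43) and wildtype MP arrays 1 or 3 (29 and 25). HSC calls fell to 663 without hypomorph array 2 and to 478 without wildtype array 2. MP calls were 31 and 38 without wildtype MP arrays 3 and 1, 180 without wildtype MP array 2, 47 and 44 without hypomorph MP arrays 1 and 2, and 131 without hypomorph HSC array 3. Leaving out an array tests fewer samples.

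Deviations of same-numbered arrays correlated at -0.198 to 0.301 between the genotypes and at -0.195 to 0.159 between HSC and MP, with both signs in each, so the numbers were not taken as pairs. The replicate block left 31 risen, 27 fallen and 893 HSC calls, and a block within each cell type left 18 risen, 10 fallen and 198 MP calls. Weighting the cell types equally through the 4-group model gave 225 and 287, which include all 62 and 79. Array weights gave 449, 915 and, in MP, 4373; their estimation stopped before it converged in the 4-group model, with weights from 0.285 to 6.996. A minimum change of 2-fold left 50 fallen. The cause of the other shifts was not tested. Added after the data were seen, the filter and probe sets of 11 arrays gave 63 risen and 78 fallen genes, with Dnmt1 at -1.26 and Sdc1 at -0.31 (adjusted p = 0.298), both through other probe sets.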
